A study of Mus musculus with 36 samples.

Results

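The genes that encode the pore-forming and auxiliary subunits of voltage-gated sodium channels and voltage-gated calcium channels, and of the hyperpolarization-activated HCN channels, were followed in mouse hippocampus through aging and fear learning. Members were every gene symbol of the RNA count files that begins Scn, Cacna, Cacnb, Cacng or Hcn and follows the numbering of these families, which gave 43 of 24060 symbols. Of these, 36 passed the filter on low counts that 14405 genes passed, and a gene expressed in 1 group alone could pass it. The Nav1.2 gene is listed under its older symbol Scn2a1, which that naming pattern leaves out, and it is described with the partner genes.

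All mice were of the C57BL/6J strain, with no transgene named in the labels. Young mice were 2.5 months old and old mice 15.5 months. Conditioned mice went through 5 min of fear conditioning with 3 shocks of 0.5 mA, each 2 s long, and naive mice are labelled as such with no further handling given. Brains were taken and frozen 30 min later. The 12 RNA libraries comprise 3 in each of 4 groups (young naive, young conditioned, old naive, old conditioned). Chromatin immunoprecipitation of the histone variant H2A.Z also has 3 libraries per group, with values per group and not per library. The labels do not say that libraries came from separate animals, so p-values measure the spread between these libraries, which may be technical.

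Sodium channels (Nav) open on depolarization and carry the upstroke of the action potential. Their alpha subunit forms the pore, and the beta subunits are single-pass membrane proteins that set gating, surface density and cell adhesion. Calcium channels (Cav) couple depolarization to transmitter release and to gene expression. Their alpha1 pore subunits fall into L-type, P/Q-, N- and R-type and low-voltage T-type channels, and alpha2-delta and beta subunits carry them to the membrane. Most genes named Cacng encode transmembrane AMPA receptor regulatory proteins (TARPs), which bind glutamate receptors of the AMPA class rather than calcium channels. HCN channels carry a depolarizing current on hyperpolarization that shapes dendritic integration and rhythmic firing. H2A.Z replaces the histone H2A in nucleosomes that flank transcription start sites.

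RNA libraries held 9410843 to 13350561 counts. Marker genes of the hippocampal fields were expressed in all 12 libraries, with a mean log2 CPM (CPM are read counts scaled to library size and composition) of 6.14 to 6.63 over 7 CA1 pyramidal markers, 5.15 to 5.46 over 7 CA3 and CA2 markers and 5.02 to 5.71 over 7 dentate granule markers. The score of 12 early activity-regulated genes was 3.33 to 4.33 in naive and 4.67 to 5.09 in conditioned libraries of young mice, and 3.60 to 4.02 and 4.72 to 5.01 in old mice. Choroid plexus markers, of which all 10 were measured, varied most, from 0.92 to 5.58. Their score was 2.18 to 5.01 in old naive and 0.97 to 2.03 in old conditioned libraries, without overlap. Training and choroid plexus content therefore go together in the old groups. In young mice the score was 2.44 to 5.58 in naive and 0.92 to 5.45 in conditioned libraries, which overlap. In bulk tissue, fewer cells of a type and less RNA per cell cannot be told apart.

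H2A.Z was recorded at the promoters of most channel genes. The authors' deposited table assigns 63 of its 20213 consensus peaks to 32 of the 43 channel genes, with up to 6 peaks on 1 gene (Cacna1a). Of these peaks, 34 lay within 1 kb of the transcription start site that table names and are called promoter peaks here; they belong to 29 genes. Another 3 genes, Cacna1d, Cacng7 and Cacng8, had only peaks farther from the start sites used there. The peak of Cacna1d and a pair of Cacng7 peaks do lie within 1 kb of a RefSeq start of their gene, at -463, -863 and 253 bp. None of the 3 passed the FDR threshold in any comparison of the authors' deposited table. A Cacna1e peak (chr1:154884263-154884794) and a Cacnb3 peak (chr15:98628352-98629057), also counted outside promoters, cover the upstream end of their gene's RefSeq span. Neither passed the FDR threshold in that table. In the authors' deposited table no peak was assigned to 11 genes, among them the sodium channel pore genes Scn1a, Scn3a and Scn7a and the beta subunit Scn2b, which were all measured in RNA. Cacng6, whose RNA was under the low-count filter, had a pair of promoter peaks.

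All 34 promoter peaks of channel genes overlapped a region that the authors' deposited table annotates with H3K27me3, the mark of Polycomb repression, compared with 34.8% of all 12204 promoter peaks. With peaks near any RefSeq start of the gene added, a setting chosen after seeing the data, it was 35 of 37, since the Cacng7 peaks lack the mark, against 35.1% of 12487. H3K4me3, the mark of active and poised start sites, overlapped 29 of the 34 (85.3%, against 93.8% of all promoter peaks in the authors' deposited table). H3K27ac, a mark of active regulatory DNA, overlapped 16 of them (47.1%, against 66.8%), and H3K4me1 overlapped 32 (94.1%, against 86.7%). Away from promoters, 10 of 29 channel gene peaks (34.5%) overlapped H3K27me3 in the authors' deposited table, beside 30.5% of all such peaks. These shares are descriptions without a test, and the tissue in which the marks were mapped is a detail not given in the sources used here.

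Promoter windows that overlapped these peaks were rich in CpG. RefSeq promoter windows of 300 bases (250 before to 50 after a start site, build GRCm38.p6, the assembly mm10 stands for) matched 31 of the 43 genes. In 19 genes a window overlapped a promoter peak, wholly in 13 and by 56 to 279 bases in 6. Their median G+C content was 71.7% with a median of 29 CpG dinucleotides, compared with 51.0% and 4.5 in the 8 matched genes without a peak and 52.7% and 7 over all 32851 windows. In the 13 windows wholly inside a peak the medians were 72.0% and 34. The window of Cacna1d, which overlaps its peak at a RefSeq start and is not among the 19, had 87.3% and 63. The GC box (GGGCGG, searched on both strands, overlapping copies allowed) occurred in 11 of the 19 windows (57.9%), in 9 of the 13 (69.2%), in 3 of the 8 without a peak (37.5%) and in 35.7% of all windows. The cyclic AMP response element (TGACGTCA), the E-box (CACGTG) and the TATA box (TATAAA), also searched on both strands, occurred in none of the 19, and in 1.79%, 7.15% and 13.6% of all windows. A match describes letters and is not evidence of binding. Windows in the promoter peaks of all genes were not examined. These figures therefore do not set channel genes apart from other promoters with H2A.Z. The windows below show 3 promoters whose H2A.Z fell after training in old mice, with Scn1a, which had no peak, for contrast. Each is read 5′ to 3′ on the strand of its gene, and capitals mark GC boxes.
Cacna1c, minus strand of chr6:119108446-119108745, 81.3% G+C: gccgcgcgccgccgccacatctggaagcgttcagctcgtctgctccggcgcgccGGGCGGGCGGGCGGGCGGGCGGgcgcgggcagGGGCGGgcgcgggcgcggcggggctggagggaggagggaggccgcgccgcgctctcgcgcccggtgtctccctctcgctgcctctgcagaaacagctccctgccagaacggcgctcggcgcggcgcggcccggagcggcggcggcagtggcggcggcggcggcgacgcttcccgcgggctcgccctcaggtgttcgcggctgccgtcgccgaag
Cacna2d3, minus strand of chr14:29721815-29722114, 81.3% G+C: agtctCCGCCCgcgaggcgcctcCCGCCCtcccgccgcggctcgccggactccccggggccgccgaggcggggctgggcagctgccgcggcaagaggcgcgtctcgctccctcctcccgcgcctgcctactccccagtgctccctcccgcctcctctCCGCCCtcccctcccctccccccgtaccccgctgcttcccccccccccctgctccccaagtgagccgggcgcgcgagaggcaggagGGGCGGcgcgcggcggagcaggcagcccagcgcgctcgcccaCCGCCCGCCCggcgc
Hcn4, plus strand of chr9:58822699-58822998, 71.7% G+C: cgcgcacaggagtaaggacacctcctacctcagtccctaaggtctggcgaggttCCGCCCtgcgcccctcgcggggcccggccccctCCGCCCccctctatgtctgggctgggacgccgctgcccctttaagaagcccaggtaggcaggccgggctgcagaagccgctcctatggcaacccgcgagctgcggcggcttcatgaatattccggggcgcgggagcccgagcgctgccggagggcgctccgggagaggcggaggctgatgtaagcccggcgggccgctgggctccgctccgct
Scn1a, minus strand of chr2:66440788-66441087, 47.3% G+C: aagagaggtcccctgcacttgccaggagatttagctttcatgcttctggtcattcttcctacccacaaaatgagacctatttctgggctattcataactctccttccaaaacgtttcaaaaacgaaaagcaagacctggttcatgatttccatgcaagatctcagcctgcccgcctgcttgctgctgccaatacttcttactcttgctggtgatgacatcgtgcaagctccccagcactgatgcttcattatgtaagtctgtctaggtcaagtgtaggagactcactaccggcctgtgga

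After fear conditioning, H2A.Z at channel gene promoters was lower in most cases at both ages, as it was at promoters genome-wide. In young mice 29 of 34 promoter peaks had a negative log2 fold in the authors' deposited table, with a median of -0.44 beside -0.63 for all promoter peaks. Only 1 of the 34 passed the authors' FDR of 0.05, where 14.6% of all promoter peaks did. In old mice 32 of 34 were negative, with a median of -0.89 beside -1.03, and 5 passed in the authors' deposited table, beside a background of 15.9%. Among the 4249 promoter peaks that overlap H3K27me3, the median in that table was -0.53 in young and -0.97 in old mice, and 8.10% and 15.5% passed.

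In young mice the promoter peak that passed the authors' threshold was that of Scn3b, a beta subunit of neuronal sodium channels. This peak lies at chr9:40268878-40269950 on mm10, 199 bp downstream of the start site. Its log2 level in the authors' deposited table was 6.37 in naive and 4.06 in conditioned young mice, a log2 fold of -2.31 with an FDR of 0.000455. The peak had been called in 3 of 3 young naive libraries and in 1 of 3 young conditioned ones. In old mice its log2 fold in the authors' deposited table was -0.96 with an FDR of 0.539. The promoter with the largest positive fold in young mice was that of Scn8a, which encodes Nav1.6 of the axon initial segment, at 0.48 with an FDR of 0.488 in the authors' deposited table.

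In old mice a pair of HCN promoters and a pair of calcium channel promoters passed the authors' FDR threshold among those described here. Promoters fell genome-wide in this comparison, with 98.3% of all promoter peaks negative and a median log2 fold of -1.03 in the authors' deposited table. Whether any channel gene promoter fell more than this background was not tested. The lowest log2 fold in the authors' deposited table was -1.79 at Hcn3 (chr3:89159225-89160266, FDR 0.0335). Its log2 level in the authors' deposited table was 7.60 in old naive and 5.59 in old conditioned mice. Hcn4, a slowly gating HCN channel, had -1.29 (chr9:58822010-58824277, FDR 0.0139 in the authors' deposited table). Both peaks had been called in every old library of both conditions. The promoter of Hcn2 had -0.60 with an FDR of 0.234 in the authors' deposited table.

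The calcium channel promoters past the authors' threshold in old mice were those of Cacna1c and Cacna2d3. Cacna1c encodes the L-type pore Cav1.2, and its promoter peak (chr6:119107217-119109303) had a log2 fold of -1.12 with an FDR of 0.0235 in the authors' deposited table. Cacna2d3, an alpha2-delta subunit, had a log2 fold of -1.0, or 1.99-fold lower, with an FDR of 0.0284 in the authors' deposited table (chr14:29721353-29723508). Both folds were close to the median of all promoter peaks in that comparison, -1.03. Both peaks hold the sequences printed above in full, with 6 GC boxes each. The same promoters had log2 folds of -0.30 (Cacna1c) and -0.32 (Cacna2d3) in young mice in the authors' deposited table, with FDR of 0.664 and 0.657. The difference between ages was not tested, because that table holds no values per library. The largest positive fold in old mice was 0.81 at a promoter peak of Cacng6, FDR 0.557 in the authors' deposited table.

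The training comparisons of H2A.Z at the 2 ages use different libraries. Each age comparison shares its young group with the young training comparison and its old group with the old one. Old against young, channel gene promoters had a median log2 fold of 0.59 in naive mice (0.44 over all promoter peaks) and 0.13 in conditioned mice (0.10 over all) in the authors' deposited table. None of the 34 passed the FDR threshold in either age comparison, and neither did any promoter peak of any gene (background 0%). At an unadjusted p under 0.05 the authors' deposited table had 6 of the 34 in naive and 0 in conditioned mice, beside 17.2% and 0.402% of all promoter peaks. Scn8a had the highest promoter fold with age in naive mice, at 1.46 with an FDR of 0.236, and Cacnb3 the lowest, at -0.64 with an FDR of 0.871 in the authors' deposited table. In conditioned mice these were Scn3b at 1.32 and another Cacnb3 peak at -0.74, both with an FDR of 1 in the authors' deposited table. Levels of the old groups in the authors' deposited table carry a constant offset against its folds, of -0.215 for training in old mice as deposited (naive minus conditioned), so levels of different groups are given only beside the fold.

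**Figure D1:**
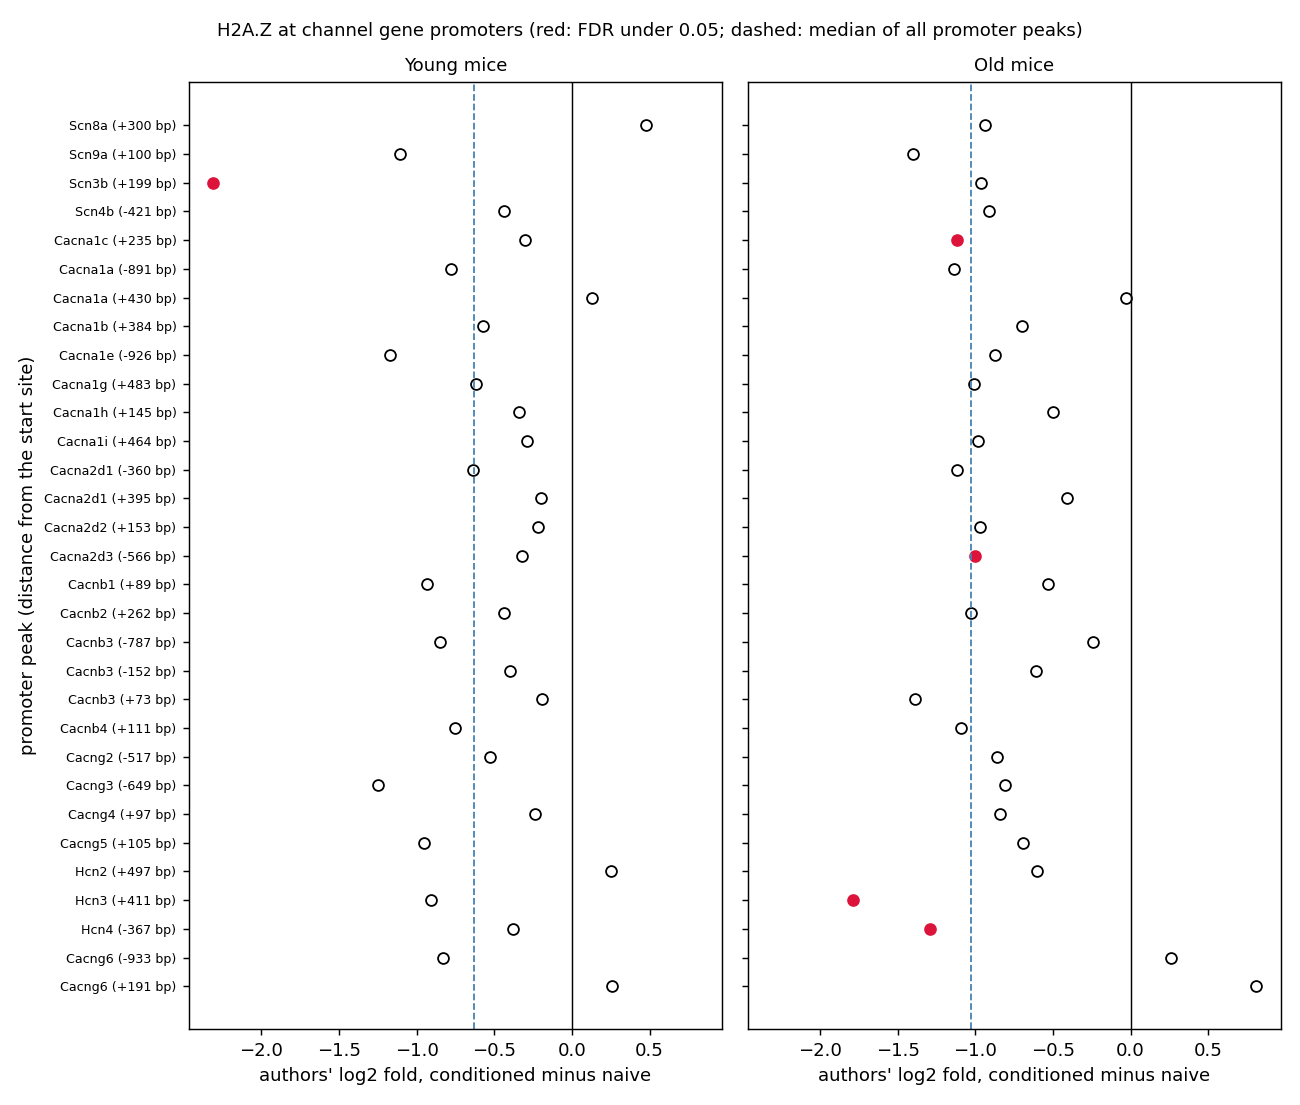
Log2 fold of H2A.Z, conditioned minus naive, at 31 promoter peaks of channel genes in young mice (left) and old mice (right), from the authors' deposited table; labels give the gene and the distance of the peak from the start site. Filled red points passed an FDR of 0.05 (Scn3b in young mice, 4 of the peaks drawn in old mice), and the dashed line is the median of all promoter peaks, -0.63 and -1.03.

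Outside the promoters 1 of 29 channel gene peaks passed the authors' threshold in young mice, beside 11.3% of all such peaks, and 0 of 29 in old mice, beside 2.72%. The 1 peak lies in an exon of Hcn2, 18649 bp from the start site, at chr10:79734892-79735672. Its log2 level in the authors' deposited table was 1.79 in young naive and 5.35 in young conditioned mice, a log2 fold of 3.55 with an FDR of 0.0341. It had been called in 0 of 3 young naive and 2 of 3 young conditioned libraries. In old mice its log2 level was 4.88 in naive and 5.35 in conditioned mice, a log2 fold of 0.68 with an FDR of 0.586. Old against young, its log2 fold in naive mice was 2.76 with an FDR of 0.243 in the authors' deposited table. The young naive group was thus the low one. This peak was singled out after its values were seen.

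The RNA of channel genes differed little 30 min after training. No channel gene passed an adjusted p of 0.05 in edgeR's quasi-likelihood test in young mice, in old mice or averaged over ages, where 0.0278%, 0.0139% and 0.0764% of the 14405 tested genes did. DESeq2 and limma voom also called 0 of them in all 3 comparisons. Genes with an unadjusted p under 0.05 numbered 1 higher and 4 lower in young mice, 2 higher and 2 lower in old mice, and 1 higher and 3 lower when averaged over ages. These are 13.9%, 11.1% and 11.1% of the 36 genes, beside 6.63%, 7.16% and 6.99% of all tested genes. The median log2 difference over the 36 genes was -0.06 in young mice and -0.02 in old mice, beside -0.006 and -0.002 over all tested genes. Libraries of the compared groups did not overlap for 5 of 36 channel genes in young mice, all lower after training (background 12.8%), and for 6 of 36 in old mice, of which 4 were higher (background 12.8%). Averaged over ages the naive and conditioned libraries overlapped for all 36 genes (background 0.292%).

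Among the calcium channel pores, all 8 measured alpha1 genes had a negative training difference averaged over ages, from -0.20 to -0.01 on the log2 scale, and none passed. Cacna1e, the R-type pore of spines and dendrites, had the smallest p. Its RNA was at 811, 723 and 832 CPM in naive and 698, 679 and 754 in conditioned libraries of young mice, and 738, 729 and 846 in naive and 609, 666 and 676 in conditioned ones of old mice. Every old conditioned library was below every old naive one, while the young groups overlapped. The log2 difference was -0.20 averaged over ages (SE 0.0516, adjusted p = 0.478, edgeR) and -0.24 in old mice (SE 0.0730, adjusted p = 0.695).

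Cacna1a, the P/Q-type pore of presynaptic terminals, was at 249, 240 and 270 CPM in young naive and 231, 216 and 217 CPM in young conditioned libraries. These groups did not overlap, and the log2 difference was -0.19 (SE 0.0652, adjusted p = 0.730, edgeR). In old mice its naive libraries were at 225, 223 and 259 CPM and its conditioned ones at 231, 231 and 224 CPM, which overlap. Cacna1c, the L-type Cav1.2 pore whose promoter H2A.Z fell in old mice, was at 260, 241 and 284 CPM in old naive and 235, 223 and 248 CPM in old conditioned libraries. The log2 difference there was -0.15 (SE 0.0701, adjusted p = 0.695). It was -0.09 without old naive 71 and -0.24 with the choroid plexus score as a covariate. Old naive 71 had the highest dentate granule score of all libraries, 5.71, and the lowest CA1 and cortex scores, 6.14 and 4.50. The part of this in the RNA differences was not tested. The span of Cacna1c overlaps the counted gene Dcp1b, at a mean of 11.2 CPM. The strand setting of the counting is a detail not given in the sources used here.

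The T-type pore Cacna1g, of low-threshold burst firing, had training differences of opposite sign at the 2 ages. Its young naive libraries were at 91.7, 83.6 and 86.1 CPM and the young conditioned ones at 70.3, 72.2 and 80.8 CPM, all lower. In old mice the naive libraries were at 68.9, 67.7 and 58.8 CPM and the conditioned ones at 79.9, 67.2 and 76.7 CPM, which overlap. The log2 differences were -0.23 in young mice (SE 0.0839, adjusted p = 0.730, edgeR) and 0.20 in old mice (SE 0.0848, adjusted p = 0.695), the latter 0.13 without old naive 71. Their difference, the interaction, was 0.42 (SE 0.119) with an adjusted p of 0.680, so the 2 ages were not shown to differ.

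Sodium channel pores had small training differences. All 6 measured alpha genes were lower averaged over ages, with log2 values from -0.30 to -0.01, and none had an unadjusted p under 0.05. Scn8a (Nav1.6) was at 666, 640 and 671 CPM in young naive and 639, 617 and 637 CPM in young conditioned libraries, which do not overlap, and its log2 difference was -0.06 with an adjusted p of 0.822. The 4 beta subunits were all higher in old mice after training, with a median of 0.10. Scn2b, which is linked to the alpha subunit by a disulfide bond, was at 419, 414 and 372 CPM in old naive and 447, 448 and 419 CPM in old conditioned libraries. The groups meet at 419 CPM without overlapping, and the log2 difference was 0.13 (SE 0.0580, adjusted p = 0.695), and 0.07 without old naive 71. Scn3b, whose promoter H2A.Z fell in young mice, was at 276, 230 and 260 CPM in young naive and 305, 263 and 299 CPM in young conditioned libraries, which overlap. Its log2 difference was 0.18 (SE 0.0741, adjusted p = 0.730), and 0.11 without young naive 81.

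Of the auxiliary and AMPA receptor subunits, Cacng3 had the smallest p for training averaged over ages. This TARP of cortical and hippocampal neurons was at 41.0, 29.6 and 33.8 CPM in naive and 38.9, 39.1 and 39.3 in conditioned libraries of young mice, and 39.3, 41.3 and 37.6 in naive and 43.7, 51.6 and 39.0 in conditioned ones of old mice. The groups overlapped at both ages, and the log2 difference was 0.18 (SE 0.0802, adjusted p = 0.711). The 4 alpha2-delta genes were lower averaged over ages, with log2 values from -0.29 to -0.02, and 3 of the 4 beta genes were higher, with values from -0.06 to 0.05 over the 4.

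Promoter H2A.Z and RNA can be set side by side for the genes named above whose promoters passed the authors' threshold. In old mice the RNA log2 differences after training were 0.11 for Hcn3 (adjusted p = 0.892), 0.69 for Hcn4 (0.705), -0.15 for Cacna1c (0.695) and -0.02 for Cacna2d3 (0.970). In young mice that of Scn3b was 0.18. None of these 5 genes passed the RNA test in these comparisons.

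**Figure D2:**
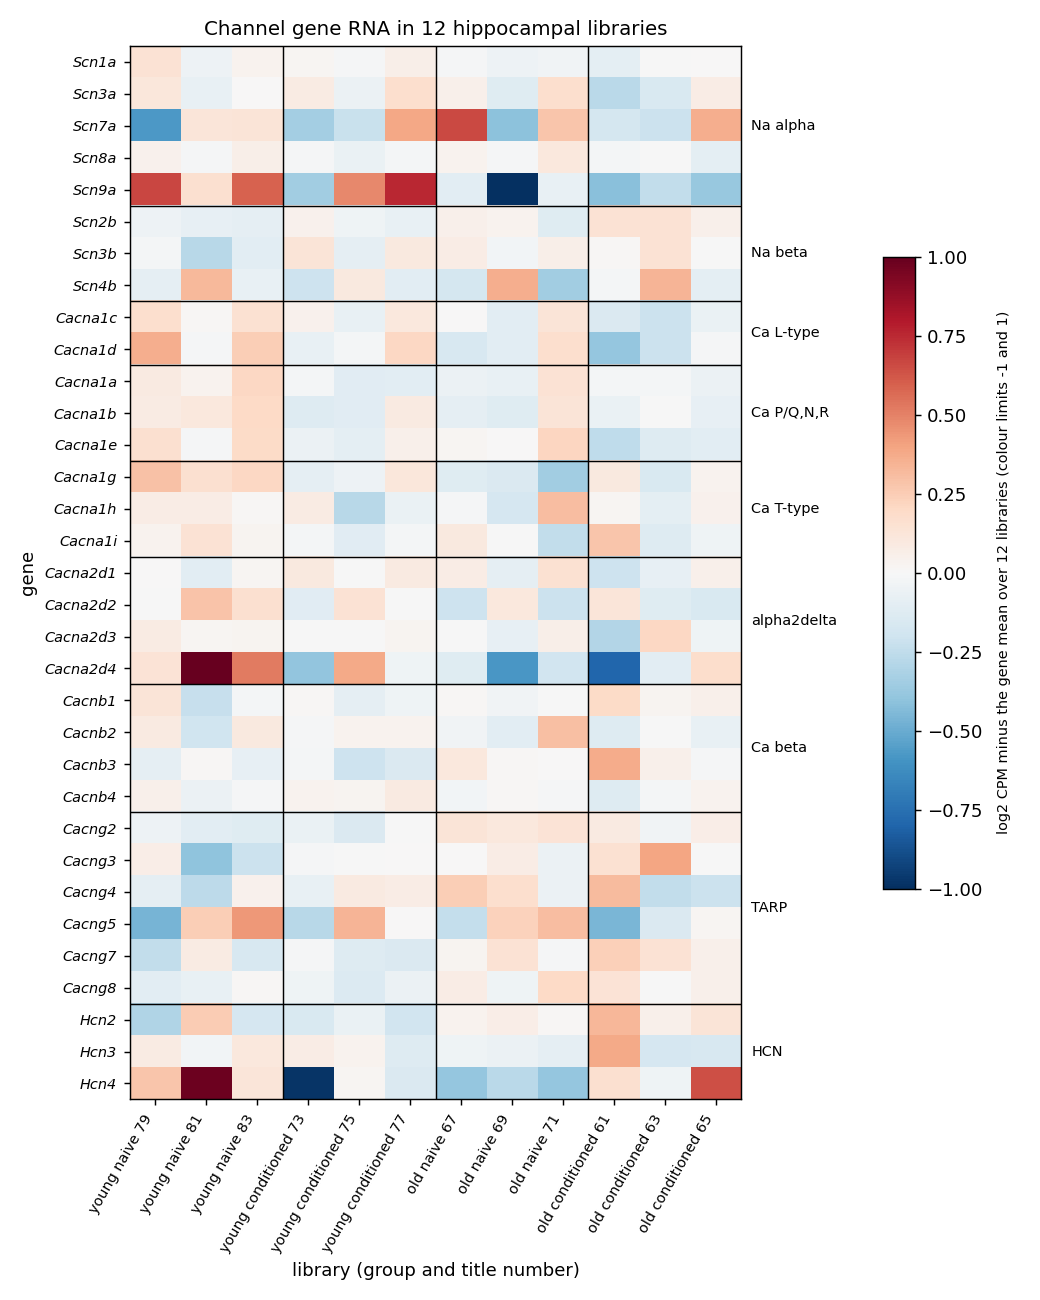
RNA of 33 measured channel genes (rows, by class) in the 12 libraries (columns, by group), as log2 CPM minus the mean of the gene over all libraries; red is above and blue below that mean, with colours limited to -1 and 1. The strongest colours belong to genes of few counts such as Hcn4, Scn9a and Cacna2d4, while Cacnb4, Scn1a and Scn8a stay pale throughout.

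With age, 1 of 36 channel genes passed an adjusted p of 0.05 in edgeR when averaged over conditions, beside a background of 0.375% of all tested genes. The genes described below did not pass. When 1 library was left out at a time, the count was 4 without young naive 81, 1 without old conditioned 65 and 0 without any 1 of the other 10, and DESeq2 called 2 and limma voom 0 with all libraries. Nuclear-retained RNAs such as Malat1 and Meg3 scored 8.89 to 9.79 in young and 8.59 to 9.34 in old libraries. Their score was taken as an indirect sign of RNA quality, of which no direct measure was used here. Microglial markers scored 4.28 to 4.53 in young and 4.57 to 4.73 in old libraries, and endothelial and mural markers 4.09 to 4.24 and 4.27 to 4.48, without overlap; their part in the age results was not tested.

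Averaged over conditions, 13 channel genes differed with age at the unadjusted level of 0.05 (8 higher, 5 lower), 36.1% of the 36 beside 16.6% of all tested genes. In naive mice 3 were higher and 5 lower, and in conditioned mice 5 higher and 3 lower, each 22.2% of the 36 beside 10.3% and 13.4% of all tested genes. None of them passed the adjusted threshold in edgeR (backgrounds 0.0555% and 0.0347%). DESeq2 called 1 gene in naive mice, Cacna1g, and 1 in conditioned mice, and limma voom called 0 in both. Libraries did not overlap for 7 of 36 genes in naive mice (background 13.4%), 9 of 36 in conditioned mice (background 23.1%) and 1 of 36 averaged over conditions (background 1.40%). The 2 age comparisons use different libraries. Each shares its young group with the training comparison in young mice and its old group with that in old mice.

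**Figure D3:**
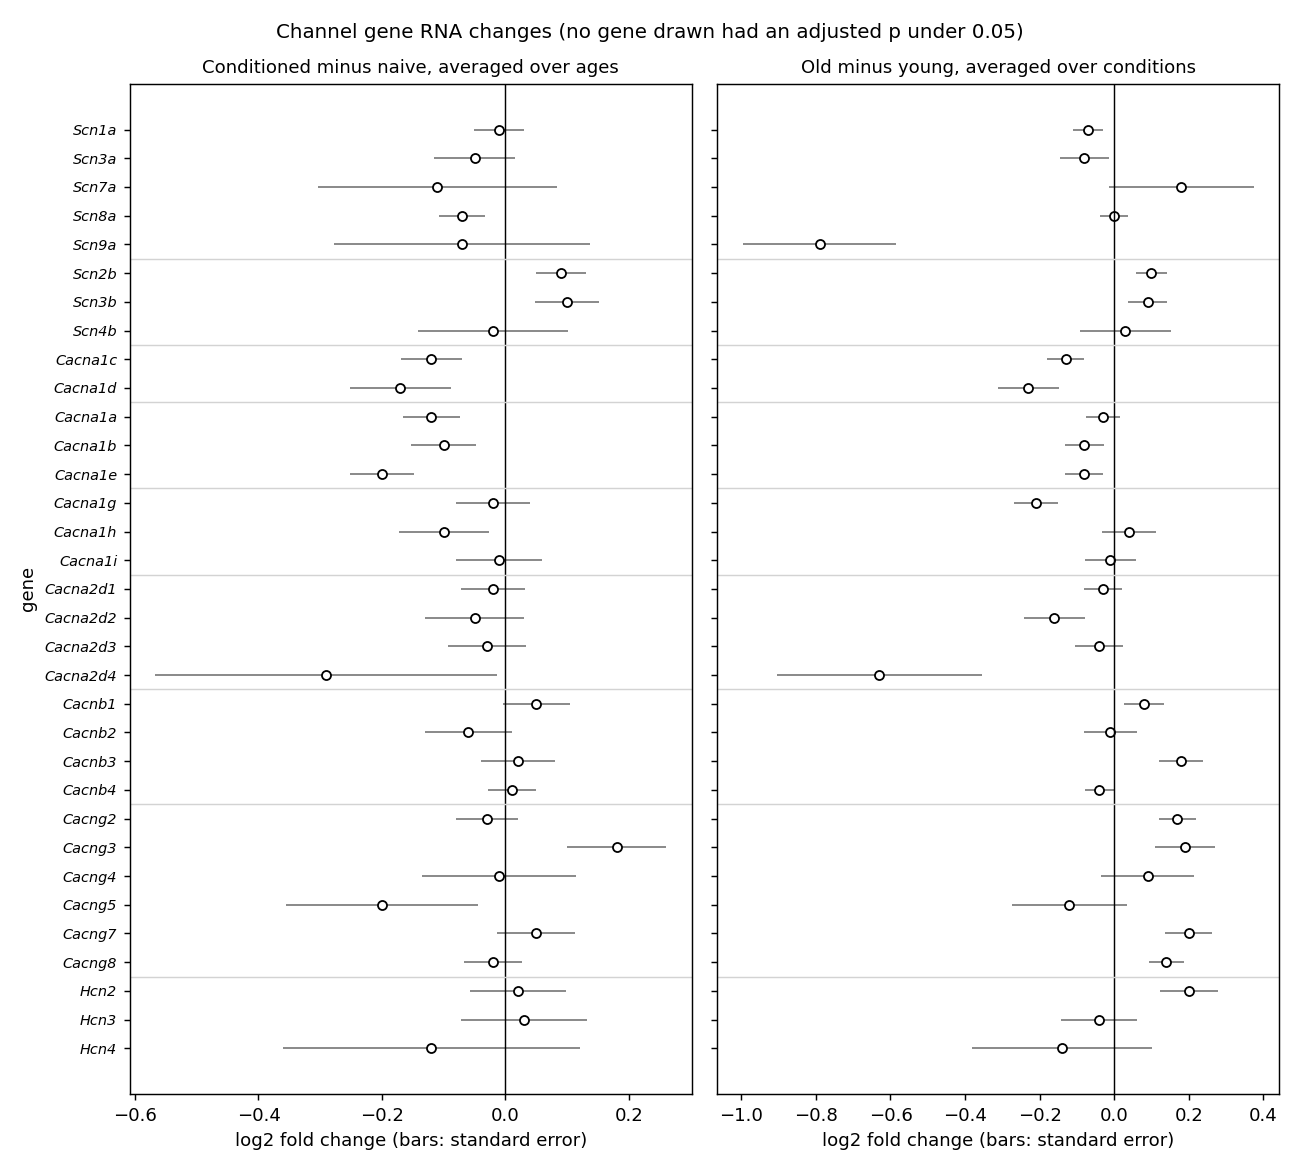
Log2 fold change of 33 measured channel genes with training, averaged over ages (left), and with age, averaged over conditions (right); points are edgeR estimates, bars are standard errors and horizontal lines divide the classes. No gene drawn had an adjusted p under 0.05; with age, Scn9a lies lowest at -0.79 and Cacng2 is at 0.17.

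The sodium channel beta subunits Scn2b, Scn3b and Scn4b had log2 values of 0.03 to 0.10 averaged over conditions and did not pass. Scn2b had 0.10 (SE 0.0410, adjusted p = 0.241). Among the pores, Scn9a, which encodes Nav1.7 of peripheral sensory neurons, had the largest difference. It was at 6.57, 4.58 and 6.20 CPM in naive and 3.17, 5.75 and 6.98 in conditioned libraries of young mice, and 3.79, 1.83 and 3.86 in naive and 3.01, 3.41 and 3.10 in conditioned ones of old mice. All old naive libraries were below all young naive ones, and 1 young conditioned library lay within the old conditioned range. The log2 difference averaged over conditions was -0.79 (SE 0.206, adjusted p = 0.0963, edgeR), and -0.85 in naive mice (SE 0.290, adjusted p = 0.335). The span of Scn9a, introns included, overlaps the counted gene Gm13629, at a mean of 2.83 CPM. Whether their exons overlap was not examined and the strand setting is not given, so reads of the 2 genes may be mixed. The pores Scn1a, Scn3a and Scn8a had log2 values between -0.08 and 0.00.

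Most TARP genes had a higher RNA estimate in old mice, and none passed the adjusted threshold. Of 6, 5 were higher averaged over conditions, with a median log2 difference of 0.15. In edgeR 4 had an unadjusted p under 0.05, all higher, beside 7.33% of all tested genes higher and 9.27% lower at that level. The 6 genes were measured in the same libraries. Cacng2 (stargazin) was at 39.9, 38.3 and 38.1 CPM in naive and 39.4, 37.4 and 41.3 in conditioned libraries of young mice, and 45.2, 44.5 and 45.5 in naive and 44.0, 40.4 and 43.3 in conditioned ones of old mice. The naive groups did not overlap and the conditioned groups did. The log2 difference was 0.17 averaged over conditions (SE 0.0506, adjusted p = 0.141, edgeR) and 0.22 in naive mice (SE 0.0715, adjusted p = 0.326). Cacng7 was at 49.7, 45.8 and 45.4 CPM in young conditioned and 59.3, 55.5 and 51.9 CPM in old conditioned libraries, all higher, with a log2 difference of 0.24 (SE 0.0894, adjusted p = 0.289), or 0.15 with the nuclear-retained RNA score as a covariate. Cacng8, the TARP most abundant in hippocampal pyramidal cells, had 0.14 averaged over conditions (SE 0.0470, adjusted p = 0.180). Cacng5 was the exception, at -0.12.

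Among calcium channel genes, the pore with the smallest p for age was Cacna1g, whose values in all 12 libraries are given above. Its old naive libraries, at 58.8 to 68.9 CPM, were all below the young naive ones, at 83.6 to 91.7 CPM. The log2 difference was -0.42 in naive mice (SE 0.0844, adjusted p = 0.117, edgeR) and -0.21 averaged over conditions (SE 0.0596, adjusted p = 0.125). In conditioned mice the means were 74.6 ± 6.62 CPM in old and 74.4 ± 5.59 CPM in young mice (SD, n = 3), which overlap. Both measured L-type pores were lower in old mice, Cacna1c by a log2 value of -0.13 (adjusted p = 0.201) and Cacna1d by -0.23 (adjusted p = 0.186). The span of Cacna1d, introns included, overlaps the counted genes Dcp1a and Chdh, at means of 30.8 and 6.90 CPM. Its values may be uncertain, since the strand setting is not given and overlap of exons was not examined. The beta subunit Cacnb3 was higher in conditioned mice, at 199, 160 and 153 CPM in old and 152, 133 and 140 CPM in young libraries. The groups did not overlap, and the log2 difference was 0.27 (SE 0.0844, adjusted p = 0.239). Without old conditioned 61 it was 0.14.

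All 4 alpha2-delta genes were lower in old mice averaged over conditions, with log2 values from -0.63 to -0.03, and none passed. The lowest value belonged to Cacna2d4, at 0.531 to 2.29 CPM, which overlaps the counted gene Lrtm2 at a mean of 44.2 CPM. Cacnb1 overlaps Rpl19, at a mean of 158 CPM. These overlaps are of whole gene spans, so the values of both channel genes may be uncertain in the same way.

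**Figure D4:**
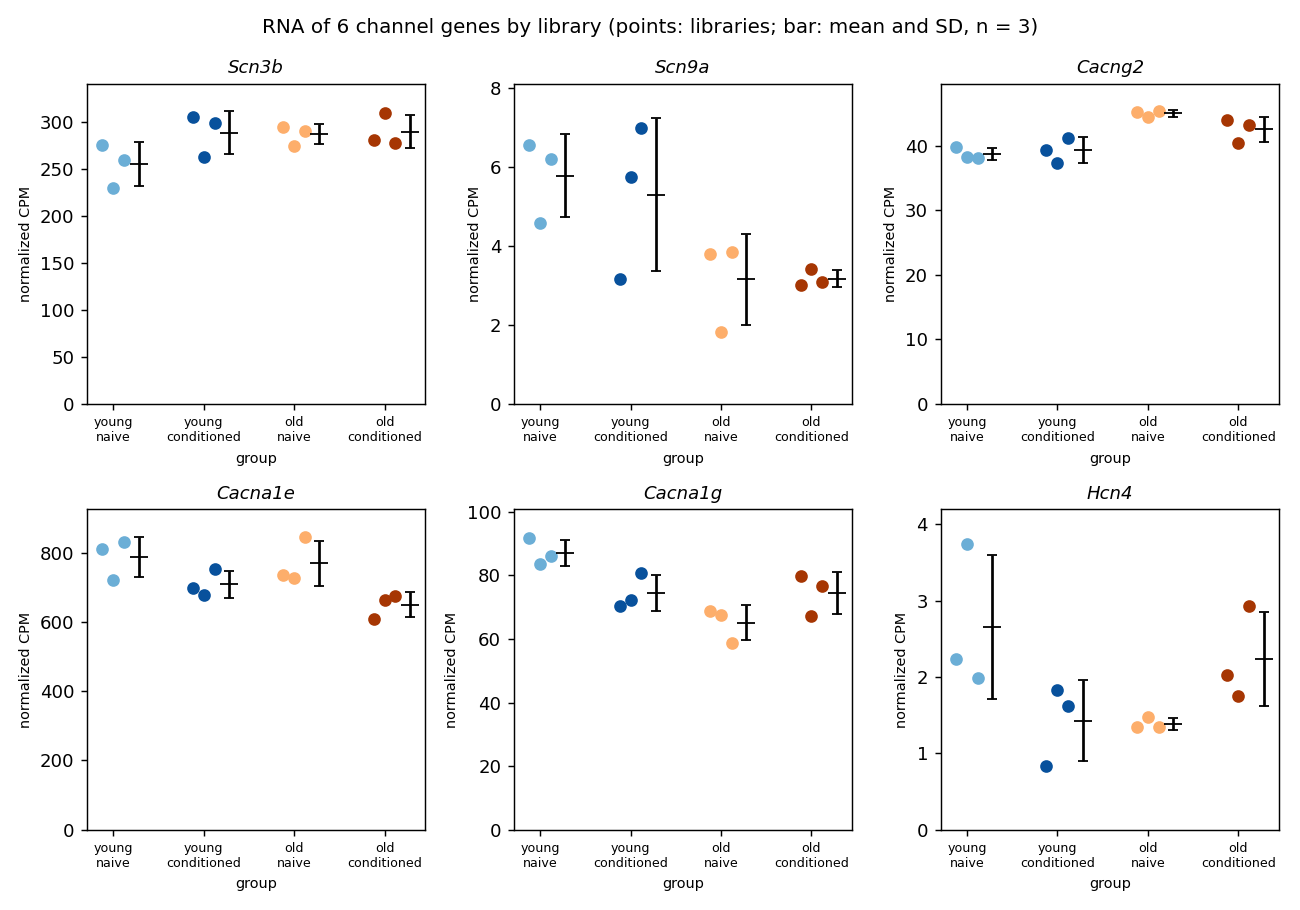
Normalized CPM of Scn3b, Scn9a, Cacng2, Cacna1e, Cacna1g and Hcn4 in each of the 12 libraries, by group, with axes from 0; points are libraries and bars show the mean and SD of the 3 libraries of a group. Every Cacng2 value of old naive mice is above every value of young naive mice, while Hcn4 lies under 4 CPM throughout.

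Hcn2, a main HCN channel of brain, was at 109, 116 and 107 CPM in young conditioned and 154, 126 and 133 CPM in old conditioned libraries. The old ones were all higher, with a log2 difference of 0.31 (SE 0.110, adjusted p = 0.276, edgeR), or 0.16 with the nuclear-retained RNA score as a covariate. In naive mice the young libraries were at 98.7, 145 and 109 CPM and the old ones at 125, 128 and 123 CPM, and the groups overlapped. Hcn3 stayed between 9.35 and 13.7 CPM in all 12 libraries.

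Hcn4 had large log2 differences at a low level. It was at 2.23, 3.74 and 1.99 CPM in naive and 0.829, 1.83 and 1.62 in conditioned libraries of young mice, and 1.34, 1.47 and 1.34 in naive and 2.03, 1.75 and 2.93 in conditioned ones of old mice. After training all libraries were lower in young mice and all were higher in old mice. The log2 differences were -0.93 in young mice (SE 0.333, adjusted p = 0.730, edgeR) and 0.69 in old mice (SE 0.342, adjusted p = 0.705). Without young naive 81 that in young mice was -0.57. The interaction was 1.62 (SE 0.477) with an adjusted p of 0.680. Young naive 81 and old conditioned 65, the libraries with the most Hcn4 RNA, also had the highest scores of 7 thalamus markers, 4.55 and 4.54, against 3.79 to 4.16 in the other 10. A fit with the thalamus score as a covariate was among the other settings. Over these settings the Hcn4 log2 difference in young mice ranged from -1.18 to -0.57, and the interaction from 1.13 to 1.87. How much of the Hcn4 values goes with thalamus content was not tested beyond that fit.

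The training effect was not shown to differ between ages for any channel gene. No channel gene, and no gene at all, passed the interaction test in edgeR (background 0%), and DESeq2 and limma voom called 0 channel genes. At an unadjusted p under 0.05 the interaction was positive for Cacna1g and Hcn4 and negative for none, 5.56% of the 36 beside 7.20% of all tested genes. The next smallest p-values were those of Cacna2d1, the alpha2-delta subunit bound by gabapentin, at -0.21 (SE 0.103, adjusted p = 0.703; -0.11 without young naive 81 and old conditioned 61 together), and Cacna1a at 0.15 (SE 0.0922, adjusted p = 0.745).

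The 7 channel genes under the low-count filter were not tested. Scn4a, the pore of skeletal muscle, had 14 counts over the 12 libraries, Cacna1s, its L-type counterpart, 56, and the muscle gamma subunit Cacng1 had 3. Scn10a and Scn11a, pores of sensory neurons, had 7 and 8, the retinal L-type pore Cacna1f had 17 and Cacng6 had 73. The most counts any of them reached in 1 library was 11, for Cacng6. At this depth levels of these genes were too low to compare.

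Partners of these channels were followed in a list of 34 genes, of which 32 were measured: anchoring proteins, channel-binding fibroblast growth factor homologs, calmodulins, kinases, release-site proteins and AMPA receptor auxiliary proteins. None passed an adjusted p of 0.05 in any of the 7 comparisons in edgeR. At the unadjusted level of 0.05, training averaged over ages had 0 higher and 3 lower, and age averaged over conditions had 7 higher and 2 lower, beside 6.99% and 16.6% of all tested genes in either direction. Ank3, the ankyrin G that anchors sodium channels at the axon initial segment, was at 557 to 616 CPM (median 576) in the 6 naive and 482 to 577 CPM (median 525) in the 6 conditioned libraries. These ranges overlap, and the log2 difference was -0.14 (SE 0.0371, adjusted p = 0.478). For age the smallest p was that of Camk2a, the alpha subunit of calcium/calmodulin-dependent kinase II, at 0.16 (SE 0.0394, adjusted p = 0.0887). Gsg1l, an AMPA receptor auxiliary protein, had 0.28 (SE 0.0755, adjusted p = 0.101), with -0.01 in naive mice (adjusted p = 0.977) and 0.57 in conditioned mice (adjusted p = 0.0984). The interaction of Gsg1l was 0.59 (adjusted p = 0.680). Scn2a1, the Nav1.2 pore, was at 616 to 687 CPM in all 12 libraries, with log2 differences of 0.00 for both training and age when averaged.

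RNA differences were also set against the length of each gene on the chromosome, introns included. In conditioned mice the log2 difference with age had a Spearman correlation of -0.646 with genomic span over the 36 channel genes, and -0.214 over 13589 tested genes with a span. In naive mice these were -0.272 and -0.128. For training in old mice they were -0.553 and -0.177, and in young mice -0.0714 and -0.0631. These correlations are across genes that share the same libraries, and they are given as a description with no test.

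Averaged over conditions, 16 of the 19 channel genes longer than 100 kb were lower in old mice, with a median of -0.07, and 5 of the 17 shorter ones were lower, with a median of 0.09. Over all tested genes the medians were -0.04 for the longer and 0.01 for the shorter genes. Short genes with positive values include Cacnb3 (16.1 kb) and Hcn2 (19.5 kb), and long genes with negative values include Cacna1c (610 kb) and Cacna1d (451 kb). The score of nuclear-retained RNAs had a mean of 9.42 in naive and 9.30 in conditioned libraries of young mice, and of 9.01 and 8.97 in those of old mice. The part of RNA quality in this pattern, of which the score is only an indirect sign, was not tested.

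**Figure D5:**
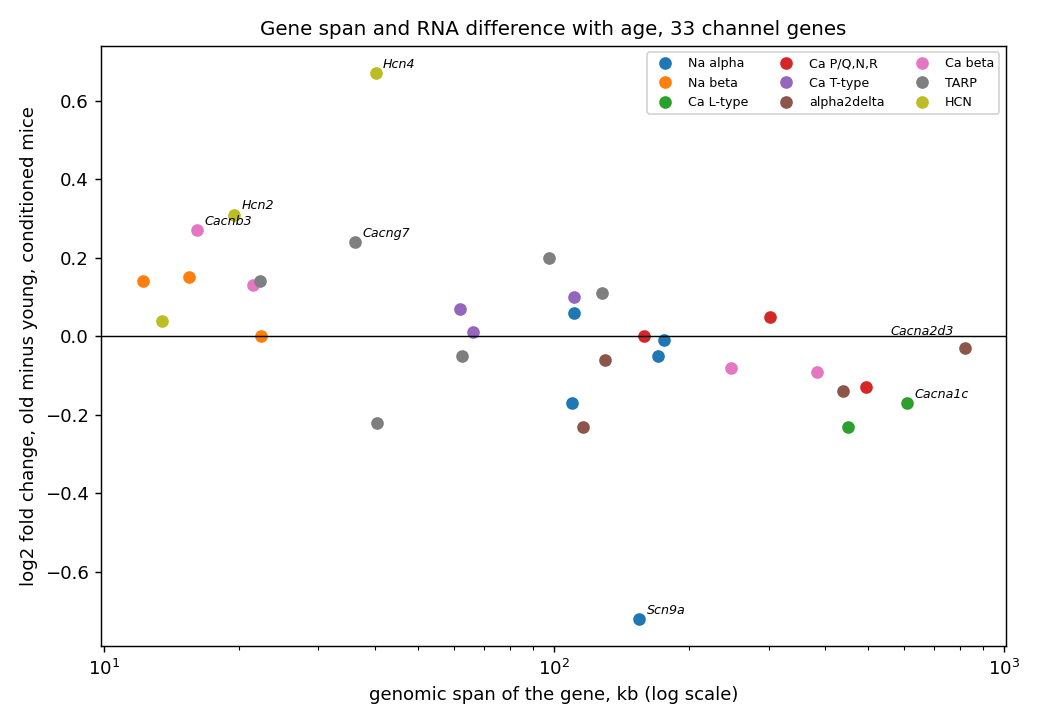
Genomic span in kb (log axis) against the log2 fold change with age in conditioned mice for 33 measured channel genes, coloured by class. Hcn2, Cacnb3 and Cacng7, all under 100 kb, lie above 0 and Cacna1c, over 100 kb, lies below it; Hcn4 and Scn9a are the outlying points at 0.67 and -0.72.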

How the data were processed

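Groups were taken from the labels of 36 samples: 12 RNA, 12 H2A.Z and 12 input libraries; inputs were not used here. RNA values are whole-number counts per gene symbol deposited by the authors without normalization. A table of consensus peaks on mm10, deposited by the authors, gives for H2A.Z the log2 folds and log2 mean levels per group, p-values with FDR, and the count of libraries in which each peak was called. The submitters' processing notes name TopHat, HTSeq 0.6.1p2, Bowtie2 2.2.1, MACS2 2.0.10, DiffBind 1.12.2 and edgeR 3.8.6, with mm9 and mm10; their roles, the annotation, the strand setting and the scaling of the H2A.Z values are details not given in the sources used here.

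Counts were fitted in 1 edgeR 4.0.16 quasi-likelihood model of the 4 groups (R 4.3.3, TMM factors, filterByExpr), with Benjamini-Hochberg adjustment over 14405 genes and a threshold of 0.05. Standard errors come from the quasi-likelihood F statistic, and CPM use TMM library sizes. A marker score is the mean log2 CPM (prior count 2) of its list. The fit was tested on simulated data. The sign of H2A.Z folds was changed so that positive means higher in conditioned or in old mice; the letter T was taken, by exclusion, to mean conditioned. That table has no value per library, so no test was run on it. Promoter windows, gene spans and coordinates are from RefSeq on GRCm38.p6; gene span includes introns, so levels of different genes were not compared.

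The members and lists were chosen with earlier results of these data known. By rule, full statistics go to every channel gene past 0.05, and otherwise to the 4 with the smallest p per comparison, to the 2 partners with the smallest p, and to H2A.Z promoters past the FDR threshold or with the largest rise or fall; the others given are described by values. Replicates differed by more than sampling noise. Some members are counted but not reported here by name or value.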

Additional observations from a re-analysis of the deposited data

How the results depend on the processing

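In up to 23 other settings or library subsets per gene, no direction of a named gene reversed. These genes were picked by their p in the same data, and the settings reuse all or most of the libraries. The kept directions are therefore not independent support. The count of channel genes past the adjusted threshold stayed 0 in every setting for the 3 training comparisons and the interaction. For age in naive mice it was 1 with DESeq2 and 1 without the low-count filter (Cacna1g in both). For age in conditioned mice it was 1 with DESeq2. For age averaged over conditions, where 1 gene passed, it was 2 with DESeq2 and 2 without the filter, Scn9a among them, 3 with the choroid plexus score as a covariate, Scn9a and Cacna1d among them, and 0 with upper-quartile factors, with at least 50 counts in 3 libraries, with limma voom or with the nuclear-retained RNA score as a covariate. A pair of RNA settings was chosen after seeing the data: the thalamus score as a covariate gave 0 genes, and leaving out young naive 81 and old conditioned 61 together gave 2, Hcn2 among them. Leaving out 1 library at a time gave 0 to 4 genes: 4 without young naive 81 (Cacng7, Hcn2 and Scn9a among them), 1 without old conditioned 65, and 0 without any 1 of young naive 79 and 83, young conditioned 73, 75 and 77, old naive 67, 69 and 71 or old conditioned 61 and 63. For H2A.Z promoters, an FDR of 0.10 gave 2 genes instead of 1 in young mice (Cacng3 and Scn3b), and an FDR of 0.01 gave 1 instead of 5 in old mice. Adding peaks near a start in the RefSeq promoter windows, also chosen after seeing the data, left the counts at 1 and 5. The cause of these changes was not tested. Among the measured genes described here, depth limits Cacna2d4, Hcn4 and Scn9a most, with 157, 268 and 597 counts over the 12 libraries. No paired analysis was possible because the RNA title numbers are unique and the H2A.Z table holds no values per library.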
